A study of Mus musculus and Homo sapiens with 12 samples.

Results

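The repeats described here are those that hg38 places beside or inside ribosomal DNA (rDNA): every annotated element on chromosome 21 up to position 10900000, on the unlocalised chromosome 22 contig KI270733v1 and on the unplaced contig GL000220v1. They number 4219 of the 3919868 repeat elements in the table, with 3918 on chromosome 21, 156 on KI270733v1 and 145 on GL000220v1, and 918 of them had a count in at least 1 library. These segments were chosen by the difference between genotypes in the same libraries, so the KO and WT values of their elements are given as a description, without a test. The libraries were m5C meRIP–seq of chromatin-associated RNA (caRNA, the RNA that remains with chromatin after nuclei are fractionated) from K-562, an established line derived from chronic myeloid leukaemia. One group was WT and the other was TET2 KO, in which the enzyme TET2, an oxidase of methylated cytosine, is missing, with 3 libraries per group and no further treatment in the labels of either. The study describes its genome-wide data as coming from biological replicates, and the sources used here do not say whether these were separate cultures or whether the KO line is 1 clone, and 1 label field of the KO libraries names the line slightly differently. Repeat counts summed to between 498220 and 650378 for WT libraries and to between 715367 and 827682 for KO libraries. These sums include the FordPrefect repeats described below, with 46875 to 55096 counts in WT and 169013 to 193614 in KO. Sequencing depth itself was not measured here. No input or spike-in column was analysed here, so the amount of an RNA and its m5C cannot be told apart, and every value is relative to the other repeats.

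Ribosomal DNA is arranged as tandem units on the short arms of the acrocentric chromosomes. RNA polymerase I transcribes a long precursor from each unit, in the order 5′ external spacer, 18S, first internal spacer, 5.8S, second internal spacer, 28S and 3′ external spacer, and the spacers are cut away in the nucleolus. Between precursors lies an intergenic spacer rich in Alu and other repeats. FordPrefect and MER45C are names of DNA transposon families, and Alu elements are short interspersed repeats (SINEs).

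The segments held 8 rDNA units, each marked by an identical 153-bp 5.8S sequence, 4 on chromosome 21 and 2 on each contig. They lay in 4 arrays: chr21:8203114-8260971, chr21:8386161-8472360, KI270733v1 from 119364 to its end at 179772, and GL000220v1 from 102540 to its end at 161802. The arrays held 183 of the 4219 elements, and 180 of these had counts. Of the 183 elements 133 were SINE, 20 DNA, 15 LINE and 15 LTR elements. Units were placed in register by alignment to the first unit of chromosome 21, where successive copies start 44209 bp apart, which gave 46 repeat positions. Only 2 of these positions lay between the start of the FordPrefect element and the aligned part of 28S.

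The first was the FordPrefect position. The element was 801 bp long, on the + strand, and ended 3045 bp before 18S, which was located by alignment of the mouse gene (97.3% identity). The human 5′ external spacer is known to be longer than this gap, so the element reaches into the start of the precursor, although the transcription start itself was not located here. The table annotated it in 3 units only: chr21:8205786-8206586, chr21:8388833-8389633 and KI270733v1 122071 to 122871. The 3 annotated copies were identical base for base. The same 801 bp occurred exactly 7 times in hg38, all within the segments, and the eighth unit differed by 1 inserted base (99.9% identity), so 5 units carry the sequence with no FordPrefect row of their own. On chromosome 21 both copies lay in introns of long non-coding RNA genes of GENCODE and overlapped an exon of a short misc_RNA gene, all on the + strand. No gene annotation of the contigs was used here.

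The second was the MER45C position in the first internal spacer, 553 bp after 18S and 370 bp before 5.8S. It was annotated in all 8 units, as 148 bp in the 3 units with a FordPrefect row and as the first 109 bp of the same sequence in the other 5. The 148 bp occurred 8 times in hg38, again only in the segments. Both elements were therefore parts of the rDNA unit in sequence as well as in place.

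Their sequences are printed to show how far they differ in composition from a FordPrefect element elsewhere. All are from hg38, + strand, with CpG dinucleotides in capitals. The first 250 bp of FordPrefect (chr21:8205786-8206035) held 30 CpG and its last 250 bp (chr21:8206337-8206586) held 39. MER45C (chr21:8212054-8212201) held 21 CpG in 148 bp. The first 250 bp of the FordPrefect element with the most counts outside the segments (chr2:37629319-37629568) held 1.
FordPrefect, first stretch: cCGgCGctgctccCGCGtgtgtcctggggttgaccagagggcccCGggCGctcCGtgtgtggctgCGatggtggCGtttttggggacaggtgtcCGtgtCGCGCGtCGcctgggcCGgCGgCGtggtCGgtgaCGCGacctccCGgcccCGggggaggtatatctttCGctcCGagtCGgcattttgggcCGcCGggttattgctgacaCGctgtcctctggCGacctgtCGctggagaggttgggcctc
FordPrefect, last stretch: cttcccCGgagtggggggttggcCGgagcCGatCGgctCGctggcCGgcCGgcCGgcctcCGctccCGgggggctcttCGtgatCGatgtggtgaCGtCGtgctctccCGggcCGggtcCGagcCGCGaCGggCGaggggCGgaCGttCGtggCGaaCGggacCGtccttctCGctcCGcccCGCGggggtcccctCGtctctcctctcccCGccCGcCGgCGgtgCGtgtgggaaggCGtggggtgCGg
MER45C: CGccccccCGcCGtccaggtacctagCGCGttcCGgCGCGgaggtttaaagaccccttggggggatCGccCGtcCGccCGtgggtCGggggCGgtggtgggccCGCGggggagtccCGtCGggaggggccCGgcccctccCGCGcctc
FordPrefect elsewhere: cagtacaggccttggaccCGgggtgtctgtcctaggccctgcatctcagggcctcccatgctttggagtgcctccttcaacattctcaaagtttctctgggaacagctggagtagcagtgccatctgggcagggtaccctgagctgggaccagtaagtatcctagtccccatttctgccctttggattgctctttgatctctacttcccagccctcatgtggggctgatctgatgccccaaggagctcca

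G and C made up 75.5% of the bases of the 3 rDNA copies of FordPrefect, against a median of 43.5% (range 23.7% to 67.9%) over the 395 FordPrefect elements elsewhere in the genome. They held 14.6 CpG per 100 bases, against a median of 0.620 (range 0 to 10.5) elsewhere. MER45C in the arrays was alike in both, with 77.1% to 79.1% G and C and 14.2 to 14.7 CpG per 100 bases. The other 169 array elements with counts had a median of 57.6% G and C and 5.31 CpG per 100 bases, and the 738 elements with counts outside the arrays 44.3% and 1.01.

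Of all repeat counts FordPrefect took 7.21%, 9.53% and 9.83% in WT against 23.0%, 23.6% and 23.4% in KO. Every KO library was above every WT library, and the KO libraries lay closer together. The mean share was 8.85% ± 1.43 (SD, n = 3) in WT and 23.3% ± 0.311 (SD, n = 3) in KO, 2.64 times higher. The 3 rows were the 3 highest of the whole table.

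The copy at chr21:8205786-8206586 had 20908, 21526 and 26040 counts in WT against 84715, 75218 and 86811 in KO. The copy at chr21:8388833-8389633 had 15172, 15523 and 16748 counts in WT against 63212, 57110 and 64589 in KO. The copy on KI270733v1 had 10795, 10432 and 12308 counts in WT against 41241, 36685 and 42213 in KO. For each copy the KO libraries held more than the WT libraries without overlap, also as CPM (counts scaled to the library total).

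MER45C, which lies in the first internal spacer of the rDNA units, showed no such separation. Its 8 copies together held 1.37%, 1.07% and 1.56% of the counts in WT against 1.28%, 1.11% and 0.919% in KO. The groups overlapped, with means of 1.33% ± 0.247 and 1.10% ± 0.181 (SD, n = 3 each). The ratio of FordPrefect to MER45C counts within a library does not depend on how libraries are scaled: it was 5.27, 8.90 and 6.30 in WT and 17.9, 21.2 and 25.4 in KO. The groups did not overlap, and the mean ratio was 3.16 times higher in KO. Per kb of annotated element, FordPrefect had 29993, 39660 and 40893 CPM in WT and 95759, 98319 and 97346 in KO, while MER45C had 13826, 10827 and 15781 in WT and 12962, 11255 and 9294 in KO. Since FordPrefect was annotated in 3 units and MER45C in 8, the levels of the 2 elements are set between libraries rather than against each other. They did not overlap between genotypes for FordPrefect and overlapped for MER45C.

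Counts over the rest of the segments were smaller. The other 172 array elements held 1.69%, 1.74% and 0.945% of the counts in WT against 2.62%, 1.99% and 1.83% in KO, with every KO library above the WT libraries but by a small margin, and the 4036 elements outside the arrays held 1.31%, 0.644% and 1.79% in WT and 1.20%, 1.42% and 1.66% in KO, which overlapped. All members other than FordPrefect together held 4.04% ± 0.508 in WT and 4.68% ± 0.370 in KO (SD, n = 3 each), 1.16 times higher and without overlap. FordPrefect alone made up 62.3%, 73.4% and 69.6% of the segments' counts in WT against 81.9%, 83.9% and 84.2% in KO. The remaining 40102 elements of chromosome 21 held 0.942%, 0.961% and 1.49% in WT and 0.649%, 0.948% and 0.965% in KO, which overlapped as well. As KO shares are read against a total of which FordPrefect took more, MER45C was also set against the counts outside FordPrefect: 1.47%, 1.18% and 1.73% in WT and 1.67%, 1.46% and 1.20% in KO, again overlapping. On the same base all members other than FordPrefect held 4.71%, 3.82% and 4.76% in WT and 6.62%, 5.92% and 5.75% in KO, without overlap.

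**Figure D1:**
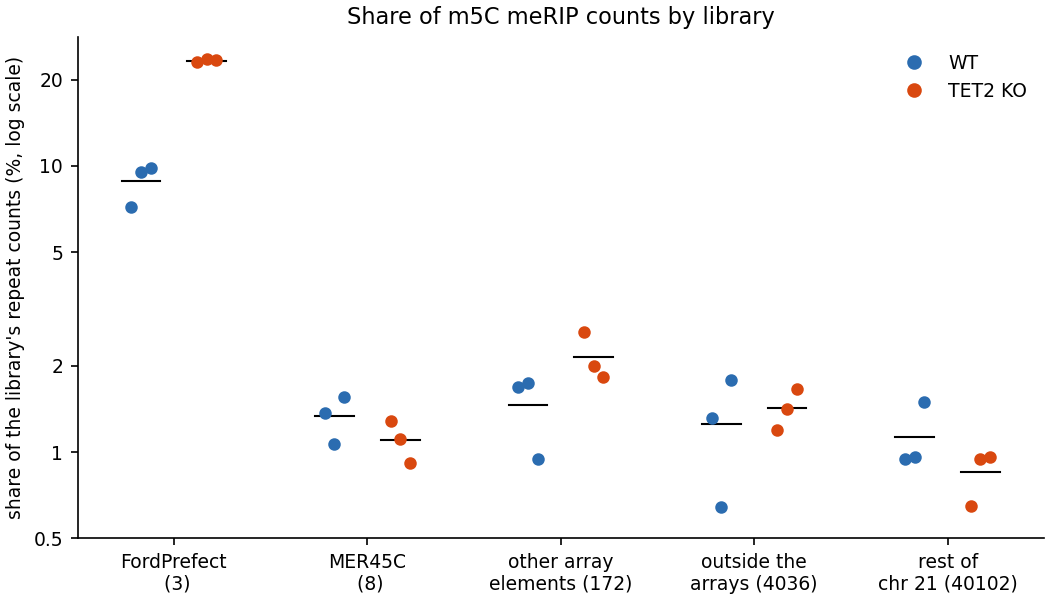
Share of all repeat counts of each library (%, log scale) held by 4 sets of the segments' elements and by the rest of chromosome 21, with the number of elements in brackets. Points are libraries and bars are group means; FordPrefect lies between 7.21% and 9.83% in WT and between 23.0% and 23.6% in KO, and the MER45C groups overlap.

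FordPrefect elements elsewhere in the genome gave no comparable signal. Of 395 elements 22 had counts, and they summed to 11.1, 8.60 and 6.97 counts over the WT libraries and 14.1, 2.72 and 3.20 over the KO libraries. These sums overlapped, so with so few counts a difference in the rest of the subfamily was not detectable.

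A test across all repeat elements (edgeR quasi-likelihood, TMM, Benjamini–Hochberg) gives the background. It tested 3127 elements and called 3 as higher in KO, 0.0959% of those tested, and 0 as lower, and 234 reached an unadjusted p under 0.05. On the same elements the Wald test of DESeq2 called 126 as higher and 48 as lower, 24 of the 174 being members. Of the members 127 passed the filter on low counts, and the 3 called were the FordPrefect copies. Since the segments were chosen from this contrast, nothing is read from that count. The fitted log2 changes were 2.15 ± 0.105 and 2.26 ± 0.114 (SE) for the copies on chromosome 21 and 2.15 ± 0.102 for the copy on KI270733v1, against a median of 0.13 over all elements tested. These calls depended on the filter: without it, 56954 elements were tested with edgeR and 0 were called, with 5450 at an unadjusted p under 0.05. The FordPrefect copies then had fitted log2 changes of 1.94 ± 2.53, 2.06 ± 2.53 and 1.94 ± 2.50 (SE, in the same order), with edgeR adjusted p of 0.92, 0.89 and 0.91.

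Scaling shifted all of these values together. The median log2 change of all elements tested was 0.13 with TMM and −0.64 with library totals, and the FordPrefect copies ranged from 2.15 to 2.26 with TMM and from 1.35 to 1.47 with library totals. The fitted changes of the 8 MER45C copies ranged from 0.43 to 0.70 with TMM, all above 0, and from −0.39 to −0.11 with library totals, all below 0, so no direction is given for MER45C. Among the 124 other members that passed the filter, CPM in the KO libraries lay all above WT for 24 and all below for 5, where over all elements tested this was so for 5.02% and 15.5%. Members at the same position in several units may share reads, which was not tested, so these 124 cannot be taken as independent. Because they also belong to the segments chosen from this contrast, nothing is read from the counts.

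**Figure D2:**
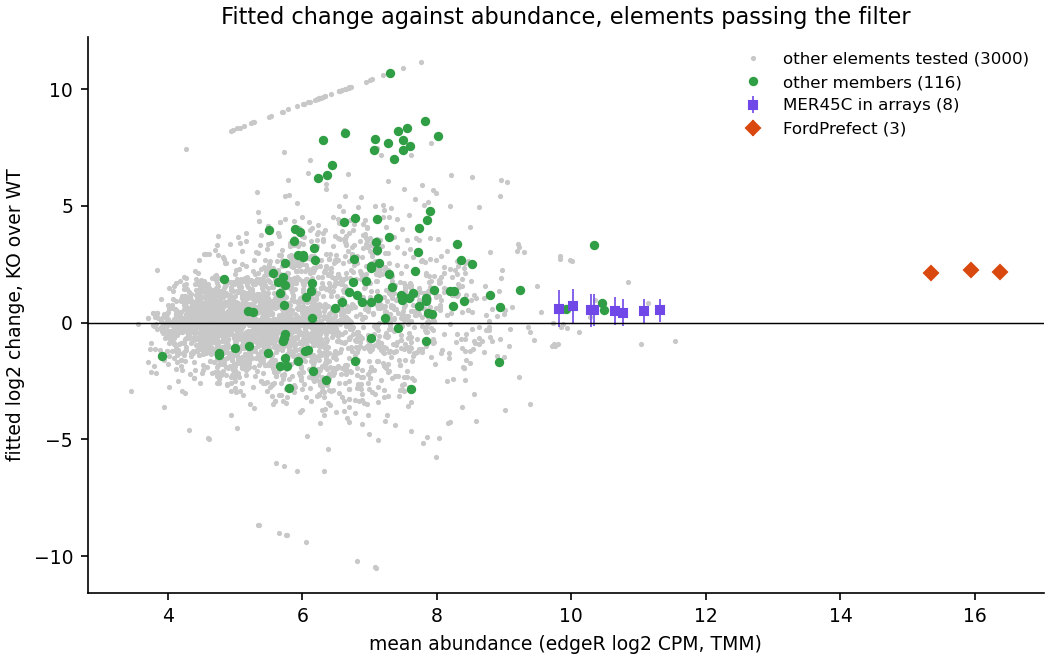
Fitted log2 change, KO over WT, against mean abundance (edgeR log2 CPM, TMM) for the 3127 elements tested, with bars of 1 SE for FordPrefect and MER45C. The 3 FordPrefect copies lie at the highest abundance, between 2.15 and 2.26, and the 8 MER45C copies between 0.43 and 0.70.

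How counts were divided among copies was tested as the share of each copy in their sum. The shares make up the whole, so the tests of the copies depend on each other. The copy at chr21:8205786-8206586 took 44.6%, 45.3% and 47.3% of the FordPrefect counts in WT against 44.8%, 44.5% and 44.8% in KO (difference −1.03 percentage points, exact permutation p = 0.3, adjusted 0.3). The copy at chr21:8388833-8389633 took 32.4%, 32.7% and 30.4% in WT and 33.4%, 33.8% and 33.4% in KO (difference 1.70, exact permutation p = 0.1, adjusted 0.15). The KI270733v1 copy took 23.0%, 22.0% and 22.3% in WT and 21.8%, 21.7% and 21.8% in KO (difference −0.68, exact permutation p = 0.1, adjusted 0.15). The groups did not overlap for the last 2 copies, but with 3 libraries against 3 the smallest two-sided p over the 20 assignments is 0.1, so no difference in the split could pass the threshold. The copies are identical in sequence, so a read within them does not belong to one copy more than another, and how the counting divided such reads was not stated.

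The 8 MER45C copies were divided unequally too. The copy at chr21:8439304-8439412 took the largest mean share, 20.1% ± 2.36 in WT and 20.4% ± 1.16 in KO, and the first copy on KI270733v1 the smallest, 6.93% ± 0.903 and 7.25% ± 0.396 (SD, n = 3 each). The 5 copies annotated at 109 bp took 64.4%, 61.1% and 62.2% in WT and 62.9%, 63.5% and 61.7% in KO.

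The remaining 44 positions lay before FordPrefect or after the aligned part of 28S, 14 on the + and 30 on the − strand. Of these, 39 had a mean of at least 10 counts per library. Most were carried by few libraries: at 25 of the 39 a single library held over 50% of the summed CPM. How often this held over all repeats was not computed, so it is not read as particular to these positions. A MER39B position, an LTR element 18.3 kb after the 5.8S start, had 2616 counts in WT replicate 2 and between 0.4 and 109 in each other library. An AluSz6 position had 839 counts in KO replicate 1 and at most 1.8 in any other.
Of the single elements with the highest mean counts, OldhAT1, a DNA transposon at chr21:8242607-8242691, had 581, 121 and 27.95 counts in WT against 1094, 384 and 0.4 in KO. FLAM_C, an Alu monomer at chr21:8223579-8223644, overlapped an exon of a long non-coding RNA gene on the other strand. It had 124, 958 and 402 counts in WT against 155, 219 and 0.4 in KO. Counts of OldhAT1 and of FLAM_C overlapped between genotypes, and KO replicate 3 was lowest for each.

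CPM in KO lay all above WT at 7 of the 44 positions and all below at 2, with overlap at 35. Over all single elements tested genome-wide, CPM in all KO libraries lay above WT for 5.02% and below for 15.5%. The positions are sums over copies and passed no filter, so these shares are not of the same unit. Relative to TMM effective library sizes the position counts were 10 and 1, the AluJb position at 31.2 kb no longer being lower. No genome-wide share was computed at that scaling, so nothing is read from the position counts. Of the 7 by CPM, 3 were on the + strand, 4 on the − strand, and 6 were Alu elements, which made up 30 of the 44 positions. At 5 of the 7, at least 3 libraries had under 10 counts. The 7 are named here after their values were seen. The AluSx1 position 15.3 kb after 5.8S had 2.90, 2.20 and 2.49 counts in WT against 768, 382 and 440 in KO. A second AluSx1 position at 19.8 kb had 2.1, 3.60 and 3.37 counts in WT against 1596, 586 and 781 in KO.
Both had at most 3.60 counts in every WT library and at least 382 in every KO library.
The AluSz position at 14.7 kb had 3.10, 4.60 and 4.00 counts in WT against 577, 1251 and 302 in KO. The AluSz position at 19.2 kb had 6.47, 2.60 and 2.94 counts in WT against 1517, 78.3 and 279 in KO, most of it in KO replicate 1. L1PREC2, AluSz and AluSx1 positions followed in this order at 14.2, 14.7 and 15.3 kb and again at 18.7, 19.2 and 19.8 kb. Whether these positions share reads was not tested, so they may not be independent. At the AluSp position at 33.4 kb, where WT had more counts, values were 13.0, 36.5 and 86.8 in WT and 526, 1354 and 242 in KO.
A further AluSp position at 31.5 kb had 3.60, 2.40 and 2.80 counts in WT against 276, 7.10 and 371 in KO, so its KO replicate 2 stayed close to WT.
The 2 positions where KO lay below were an AluSp at 10.7 kb, with 478, 213 and 169 counts in WT against 44.6, 3.27 and 137 in KO, and an AluJb at 31.2 kb, carried by WT replicate 3 with 413 counts against at most 9.75 in any other library.

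The seventh position with KO above WT was 1 copy of HERVIP10FH-int, the internal part of an endogenous retrovirus, at chr21:8229357-8229590. It had 365, 69.3 and 95.5 counts in WT against 1303, 1512 and 1290 in KO. Its neighbour in the same unit, at chr21:8229744-8229975, had 1668, 517 and 399 counts in WT against 548, 522 and 2176 in KO, which overlapped. The copy at chr21:8456886-8457117 had 1112, 436 and 738 counts in WT against 968, 277 and 2211 in KO, and that on GL000220v1 (128344 to 128575) had 844, 431 and 429 against 507, 283 and 1421, so in both KO replicate 3 was highest. All 5 array copies of HERVIP10FH-int together summed to 4149, 1598 and 1868 counts across the WT libraries and 3487, 2959 and 7339 across the KO libraries, and overlapped as CPM. A separate HERVIP10FH-int element outside the arrays, at chr21:10395822-10396418, had 233, 0 and 690 counts in WT against 103, 245 and 787 in KO, again overlapping.

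Summed by strand, the 43 Alu elements of the arrays on the + strand, the strand of the precursor, gave 524, 772 and 519 counts for the WT libraries and 6119, 3346 and 1480 for the KO libraries. As CPM this was 1093 ± 399 in WT and 4636 ± 2828 in KO (SD, n = 3 each), without overlap but with KO replicate 1 over 4 times KO replicate 3. The 84 on the − strand gave 3851, 1426 and 1052 counts for WT and 5083, 5515 and 5528 for KO, or 3553 ± 2110 and 6857 ± 778 CPM, also without overlap.

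Outside the arrays 738 elements had counts, of which 204 had a mean of at least 10. A single library held over 50% of the summed CPM at 185 of these 204. The share over all repeats was not computed, so this is not read as a trait of the segments. The 5 highest held 11.6% of the counts of these elements. The limit on chromosome 21 fell in a gap: the last element inside with counts, an L1P1 at chr21:10803462-10804518, had at most 2.1 counts in a library, and the first outside, an L1PA2 at chr21:12997133-12999618, at most 1.8.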

How the data were processed

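Per the labels and the methods, Trimmomatic 0.39 was used for trimming, HISAT2 2.1.0 for alignment to hg38, the transcriptome and spike-ins, and Picard for removing duplicates. The authors then ran featureCounts over repeat annotation. The deposited values are estimated counts, which are fractional; the options for multiply aligned reads and for strand are not given in the sources used here. The libraries were made with a stranded kit, and depletion of ribosomal RNA is not stated for them. The study calls its replicates biological, but the sources used here do not say whether they were separate cultures, so p-values measure only the spread between these libraries, which may be technical.

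Members and lists were chosen with earlier results of these data known. Units were found by exact match of the GENCODE release 44 gene RNA5-8SN2 and alignment with BLAST 2.17.0 (alignments of at least 1000 bp and 95% identity), and positions were grouped within 150 bp. 18S and part of 28S came from mouse genes. Counts were rounded and fitted with edgeR 4.0.16 in R 4.3.3 (filterByExpr, TMM, call at adjusted p under 0.05) over all classes. Each standard error was taken as the size of the fitted change over √F. Shares used unrounded counts. The split among FordPrefect copies was compared by a two-sided exact permutation test with Benjamini–Hochberg adjustment over the 3 copies. Named elements were FordPrefect, the 15 other members with the highest mean count, any called member and those in the precursor. Alternatives were size factors and the Wald test of DESeq2 1.42.0, library totals, filters, classes, denominators, a replicate block and leaving out each library. 0 columns were left unused. The mouse libraries were not used here.

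The fit was tested on simulated data with 200 elements changed by a log2 of 3. At the common dispersion of the data, 1.457, the median fitted change was 2.96 and 0% were called, and at a dispersion of 0.1, 98.5% were called. All simulated elements had the same dispersion, while the fit of the data estimated it per element. The simulation therefore does not show which changes could be called in the data.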

Additional observations from a re-analysis of the deposited data

How the results depend on the processing

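The 3 FordPrefect copies were the only calls with DESeq2 size factors, library totals, the 4 certain classes, the replicate block and without each library in turn (3 calls each, range 3 to 3). The segments were chosen from this contrast, so these calls are described only. The 4 certain classes left the same 3127 elements to test as the main fit, and leaving out a library left 5358 to 5786. The DESeq2 Wald test called 174 elements, the 3 copies among them. Without filterByExpr 56954 elements were tested with edgeR and 0 were called, with 5450 at an unadjusted p under 0.05. The log2 ratio of shares, KO over WT, was 1.12 for all members, 1.40 for FordPrefect and 0.21 for the others. Against the counts outside FordPrefect it was 1.37, 1.65 and 0.46, and against TMM effective library sizes 1.91, 2.19 and 1.00. Without a library it ranged from 1.05 to 1.19, from 1.27 to 1.48 and from 0.11 to 0.27. With the replicate block it was 1.12, 1.41 and 0.22. Replicate numbers did not pair the libraries: deviations of same-numbered libraries correlated at 0.022, −0.013 and −0.016. The ratio of FordPrefect to MER45C counts, an alternative chosen after seeing the data, was 2.84 to 3.72 times higher in KO without a library. Differences in the split of FordPrefect counts ranged without a library from −1.59 to −0.26, from 0.99 to 2.14 and from −0.91 to −0.39 percentage points. Among the results recomputed under these alternatives, the fitted changes of MER45C and of single HERVIP10FH-int copies changed sign, as did the median over all elements tested (0.13 with TMM, −0.64 with library totals). Of the 44 spacer positions 25 had under 10 counts in at least 3 libraries, among them 5 of the 7 where CPM in KO lay all above WT.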
